A study of Mus musculus with 6 samples.

Results

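The 9 genes described here, Ttr, Folr1, Kl, Clic6, Kcnj13, Otx2, Sostdc1, Slc4a5 and Aqp1, are markers of the choroid plexus and were taken by gene name from a table of 56748 genes. All 9 had a row with counts in that table. The 6 RNA-seq libraries came from brain tissue described as infarcted cortex of male wild-type C57 mice, collected for the day 3 time point. Both groups carried the same photothrombotic stroke, a clot made in vessels of the left hemisphere with 100 mg/kg of an intravenous agent and 5 minutes of 532 nm laser light. At 2 hours after the lesion, 3 samples labelled PLEA had received 100 µL of PLEA nanoparticles and 3 labelled Saline had received 100 µL of saline, in each case by tail vein. The labels used here do not expand PLEA, give no age, and do not say whether each library is 1 animal or a pool. No unlesioned tissue was analysed here.

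The choroid plexus is a fringe of vascular tissue that hangs into the brain's ventricles, and its epithelium secretes cerebrospinal fluid. Its cells pump sodium, chloride and bicarbonate across their apical membrane, water follows through aquaporin 1, and the same cells release carrier proteins and hormones into the fluid. The cortex itself holds no choroid plexus, and the levels of these transcripts are given for each library singly. What each dissected piece contained was not tested. In bulk tissue, fewer cells of a type and less RNA per cell cannot be told apart.

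Total counts ranged from 16810448 to 17516434 per library. Levels are given as CPM, the count scaled to the library's total and its TMM factor. Intervals on a single library are exact 95% Poisson intervals and cover counting error only. The cortical marker Slc17a7, a vesicular glutamate transporter, lay between 585 and 1249 CPM in all 6 libraries. PLEA replicate 3 stood at least 2-fold above every other library for Ttr, Slc4a5, Kl and Folr1, and Saline replicate 2 did so for Otx2. For the remaining genes no library did. The plot of fold changes gives every gene with and without PLEA replicate 3 and Saline replicate 2.

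The summed level of the 9 genes was 13.7, 39.3 and 341 CPM in PLEA replicates 1 to 3, and 7.96, 29.5 and 27.2 CPM in Saline replicates 1 to 3. PLEA replicate 3 was thus the highest library, and its 95% interval of 333 to 350 CPM lay above those of the other 5. Ttr alone made up 82.1% of the 6116 counts behind that sum. Without Ttr the sum of the other 8 genes was 13.5, 33.8 and 61.1 CPM in PLEA and 7.90, 28.0 and 26.7 CPM in Saline, and PLEA replicate 3 was again the highest. Saline replicate 1 was the lowest library with or without Ttr.

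**Figure D1:**
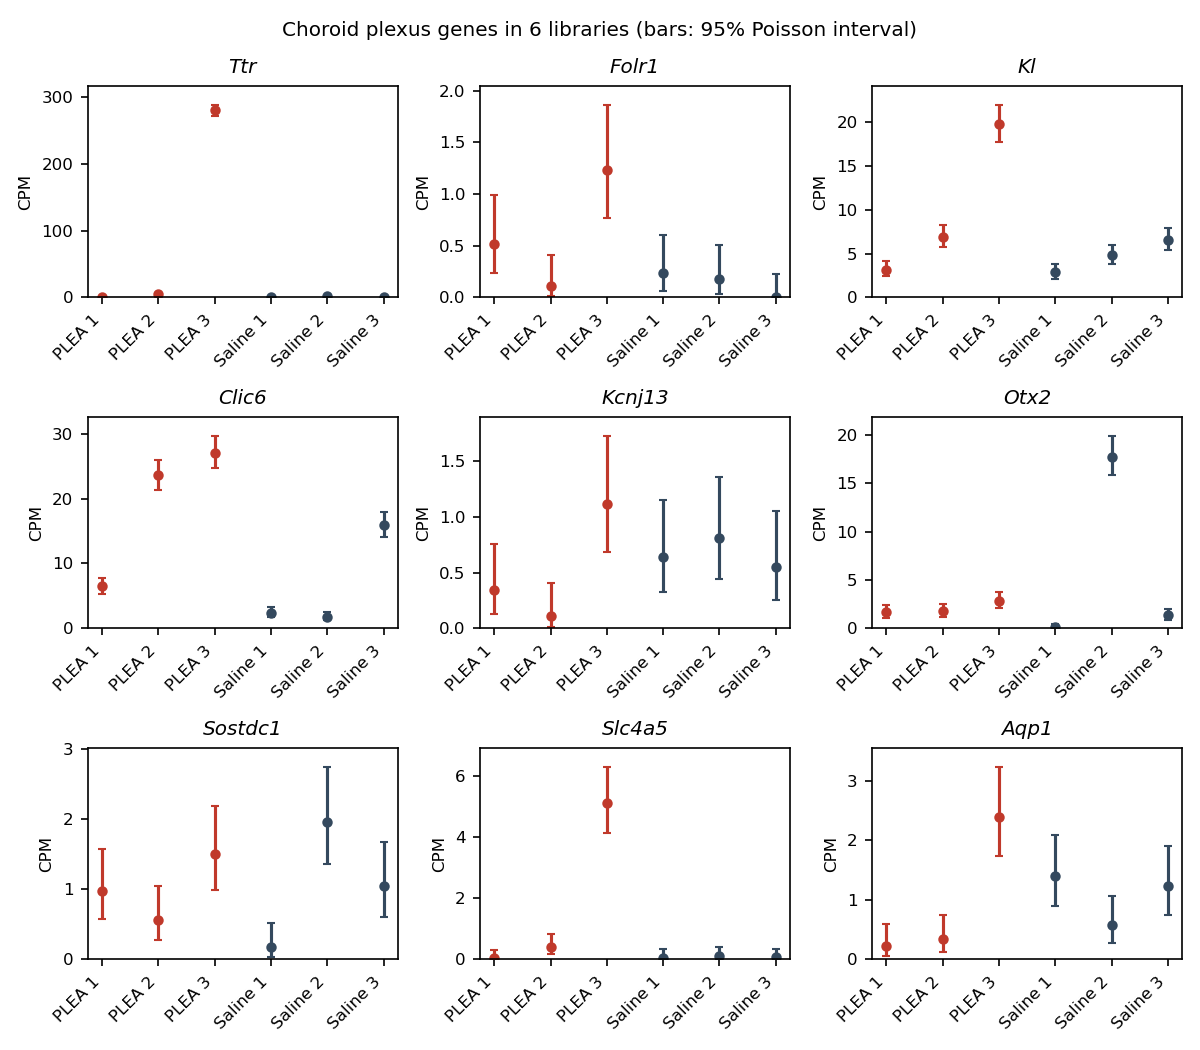
CPM (y axis, linear, own scale in each panel) of the 9 choroid plexus genes in 3 PLEA (red) and 3 Saline (dark blue) libraries, with 95% Poisson intervals. Ttr, Kl and Slc4a5 stand out in PLEA replicate 3, Otx2 in Saline replicate 2, and Clic6 is high in PLEA replicates 2 and 3 and Saline replicate 3.

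Transthyretin, encoded by Ttr (ENSMUSG00000061808, chromosome 18, bases 20798337 to 20807378 in the deposited table), carries thyroxine and retinol-binding protein, and in the brain it is made mainly by choroid plexus epithelium. Ttr had 3, 98 and 5020 counts in PLEA replicates 1 to 3, against 1, 27 and 8 counts in Saline replicates 1 to 3. On the CPM scale these were 0.173, 5.54 and 280 in PLEA and 0.0585, 1.56 and 0.492 in Saline. A single PLEA library was high, the next was also in the PLEA group, and PLEA replicate 1 lay below 2 of the 3 Saline libraries, so the groups overlapped. PLEA replicate 3 had 50.5 times the Ttr level of PLEA replicate 2, with an exact 95% interval of 41.4 to 62.4 for the ratio of these libraries.

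Averaged over libraries, Ttr was at 95.2 ± 160 CPM in PLEA and 0.702 ± 0.771 CPM in Saline (SD, n = 3 each), and the SD of the PLEA group exceeded its mean. The log2 fold change of PLEA over Saline was 7.06 (SE 2.19), with an unadjusted p of 0.0115 and an adjusted p of 0.818 in edgeR's quasi-likelihood test. Without PLEA replicate 3 it was 2.01 (SE 1.32, edgeR adjusted p = 0.999), and without Saline replicate 2 it was 8.42 (SE 3.0, edgeR adjusted p = 0.711). With limma voom it was 4.06 (SE 4.08, adjusted p = 0.884). Without the filter on low counts, edgeR called Ttr higher in PLEA (log2 fold change 7.04, adjusted p = 0.0309), 1 of 7 genes called higher among 34187, or 0.0205%. That call was lost without PLEA replicate 3 (1.99, edgeR adjusted p = 0.931), without PLEA replicate 1 (7.62, edgeR adjusted p = 0.455), without Saline replicate 2 (8.40, edgeR adjusted p = 0.0591) and without Saline replicate 3 (6.84, edgeR adjusted p = 0.118).

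Fluid and ion transport is represented by Slc4a5, Aqp1, Kcnj13 and Clic6. Slc4a5, the sodium bicarbonate cotransporter NBCe2 of the apical membrane (chromosome 6, bases 83196810 to 83281927), also stood out in PLEA replicate 3. It had 1, 7 and 92 counts in PLEA replicates 1 to 3, against 1, 2 and 1 counts in Saline replicates 1 to 3. PLEA replicate 3 alone was high, at 5.13 CPM, and was 13.0 times the next library, PLEA replicate 2 (exact 95% interval 6.05 to 33.2). Slc4a5 did not pass the filter on low counts. Fitted without that filter, its log2 fold change was 4.42 (SE 1.03, edgeR adjusted p = 0.103), or 1.43 without PLEA replicate 3 (edgeR adjusted p = 0.931). Leaving out Saline replicate 1 brought it past the threshold (4.27, edgeR adjusted p = 0.00425). That fit was chosen after the values were seen, and the share of all genes it called was not counted.

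Promoters of 5 of the 9 genes, with 8 start sites in all, were matched by symbol in RefSeq for GRCm38.p6. Ttr, Folr1, Clic6 and Sostdc1 are named only. The promoter coordinates belong to GRCm38.p6 and cannot be set against the deposited gene coordinates, which are printed with no build. A RefSeq start site shown here need not be the start of the deposited gene. The 250 bases before the start are shown for Slc4a5 and Kl, which stood at least 2-fold above every other library in PLEA replicate 3, and for the Otx2 start site that holds the homeodomain core TAATCC, with that match in capitals. The core was searched on both strands, as TAATCC and GGATTA, and occurred in 1 of these 8 promoters, the Otx2 one, at position -211 from the start, against 6.25% of 32851 promoters of the same length. The Slc4a5, Kl and Otx2 stretches had 62.8%, 66.8% and 48.4% G and C, and a match is only a description of these letters.
Slc4a5, chr6:83237125-83237374, + strand: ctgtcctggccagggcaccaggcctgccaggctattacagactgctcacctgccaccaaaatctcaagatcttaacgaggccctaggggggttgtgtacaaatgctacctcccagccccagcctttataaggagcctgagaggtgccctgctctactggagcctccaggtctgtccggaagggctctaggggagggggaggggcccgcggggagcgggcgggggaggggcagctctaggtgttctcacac
Kl, chr5:150952357-150952606, + strand: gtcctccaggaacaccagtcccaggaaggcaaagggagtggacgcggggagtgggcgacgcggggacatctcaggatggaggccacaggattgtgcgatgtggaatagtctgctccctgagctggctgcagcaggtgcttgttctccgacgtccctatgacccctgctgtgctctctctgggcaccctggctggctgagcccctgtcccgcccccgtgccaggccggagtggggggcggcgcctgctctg
Otx2, chr14:48665110-48665359, - strand: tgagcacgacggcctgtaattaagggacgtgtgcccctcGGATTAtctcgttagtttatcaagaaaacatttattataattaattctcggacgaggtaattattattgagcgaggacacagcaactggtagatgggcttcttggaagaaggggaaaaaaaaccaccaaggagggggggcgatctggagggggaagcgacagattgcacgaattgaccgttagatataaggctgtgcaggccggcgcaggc

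Aqp1, the apical water channel (chromosome 6, bases 55313417 to 55325540), had 4, 6 and 43 counts in PLEA, against 24, 10 and 20 counts in Saline. PLEA replicate 3 was the highest library at 2.40 CPM and the other 2 PLEA libraries, at 0.231 and 0.339 CPM, were the lowest of the 6, so the groups overlapped. The ratio of PLEA replicate 3 to the next library, Saline replicate 1, was 1.71 (exact 95% interval 1.01 to 2.94). PLEA over Saline, Aqp1 had a log2 fold change of -0.11 (SE 0.81, edgeR adjusted p = 0.989), and without PLEA replicate 3 it was -1.88 (SE 0.62, unadjusted p = 0.0198, edgeR adjusted p = 0.999).

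Kcnj13, the inwardly rectifying potassium channel Kir7.1 (chromosome 1, bases 87314085 to 87322451), had 6, 2 and 20 counts in PLEA, against 11, 14 and 9 counts in Saline. PLEA replicate 3, at 1.12 CPM, was above Saline replicate 2 by a ratio of 1.38, whose exact 95% interval of 0.664 to 2.96 spans 1, and PLEA replicates 1 and 2 were the lowest libraries. Over all libraries Kcnj13 had a log2 fold change of -0.34 (SE 0.69, edgeR adjusted p = 0.943), or -1.52 without PLEA replicate 3 (edgeR adjusted p = 0.999). These counts are uncertain, since in GENCODE M21 623 of the 1270 exonic bases of Kcnj13 are also exon of Gigyf2 on the opposite strand, which was at 81.8 to 97.4 CPM. The strand setting of the counting is not given in the sources used here.

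Clic6, a member of the chloride intracellular channel family (chromosome 16, bases 92282624 to 92338131), had a different pattern. It was at 6.52, 23.6 and 27.1 CPM in PLEA replicates 1 to 3, against 2.40, 1.79 and 15.9 CPM in Saline replicates 1 to 3. High libraries were found in both groups, and PLEA replicate 3 exceeded PLEA replicate 2 by a ratio of only 1.15 (exact 95% interval 1.01 to 1.31). Its log2 fold change was 1.51 (SE 0.82, edgeR adjusted p = 0.818), and it was 1.17 without PLEA replicate 3 and 1.06 without Saline replicate 2. Without Saline replicate 3, the high Saline library, it was 3.17 (SE 0.63, unadjusted p = 0.00131, edgeR adjusted p = 0.549).

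Among the secreted factors and receptors, klotho (Kl, chromosome 5, bases 150876072 to 150917282), a co-receptor for FGF23 that is also shed into the fluid, was at 3.17, 6.90 and 19.8 CPM in PLEA, against 2.87, 4.79 and 6.57 CPM in Saline. PLEA replicate 3 alone was high, at 2.87 times PLEA replicate 2 (exact 95% interval 2.33 to 3.56), while the other 2 PLEA libraries lay close to the Saline range. The log2 fold change was 1.07 (SE 0.61, edgeR adjusted p = 0.823), and without PLEA replicate 3 it was 0.09 (SE 0.47, edgeR adjusted p = 0.999).

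Folr1, the folate receptor that carries folate across the epithelium (chromosome 7, bases 101507538 to 101519995), had 9, 2 and 22 counts in PLEA, against 4, 3 and 0 counts in Saline. Its highest library was PLEA replicate 3, at 1.23 CPM, with a ratio of 2.36 to PLEA replicate 1 (exact 95% interval 1.05 to 5.83), and PLEA replicate 2 lay within the Saline range. For the count of 0 in Saline replicate 3 the exact interval reaches 0.227 CPM, and 3 counts in that library correspond to 0.184 CPM. Folr1 did not pass the filter, and without the filter its log2 fold change was 2.10 (SE 0.87, edgeR adjusted p = 0.704), or 1.15 without PLEA replicate 3.

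Sostdc1, a secreted antagonist of BMP and Wnt signalling (chromosome 12, bases 36364138 to 36368451), had 17, 10 and 27 counts in PLEA, against 3, 34 and 17 counts in Saline. Saline replicate 2 was the highest library and Saline replicate 1 the lowest, with the 3 PLEA libraries between them. The log2 fold change was -0.06 (SE 0.71, edgeR adjusted p = 0.994), and it turned to 0.74 without Saline replicate 2.

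The transcription factor gene Otx2 (chromosome 14, bases 48895134 to 48911276), needed for choroid plexus development and also for the midbrain, had 29, 31 and 51 counts in PLEA, against 2, 308 and 22 counts in Saline. Saline replicate 2 alone was high, at 17.8 CPM, or 6.25 times the next library, PLEA replicate 3 (exact 95% interval 4.63 to 8.57). Ttr was at 1.56 CPM in that same library, where it had 27 counts. The log2 fold change was -1.62 (SE 1.19, edgeR adjusted p = 0.847) and turned to 1.51 (SE 0.75, edgeR adjusted p = 0.747) without Saline replicate 2. In GENCODE M21, 154 of the 4221 exonic bases of Otx2 are shared with the opposite-strand gene Otx2os1, which was at 0.519 CPM or less in every library. The same-strand gene Gm49154 shares 168 of them, and had a level above 0 only in Saline replicate 2 (0.231 CPM).

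Per kilobase of gene length, Ttr was the most abundant of the 9 in PLEA replicate 3, at 236 RPKM. Clic6 followed at 6.93 RPKM and Kl at 2.12 RPKM, and the other 6 lay between 0.534 RPKM (Folr1) and 0.913 RPKM (Aqp1). The level in PLEA replicate 3 less the median of the other 5 libraries was 236 RPKM for Ttr, 5.26 RPKM for Clic6, 1.61 RPKM for Kl, 0.874 RPKM for Slc4a5, 0.693 RPKM for Aqp1 and 0.459 RPKM for Folr1. Of all counts over the 6 libraries, PLEA replicate 3 held 97.3% for Ttr and 88.5% for Slc4a5, but 36.1% for Clic6 and 11.5% for Otx2.

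**Figure D2:**
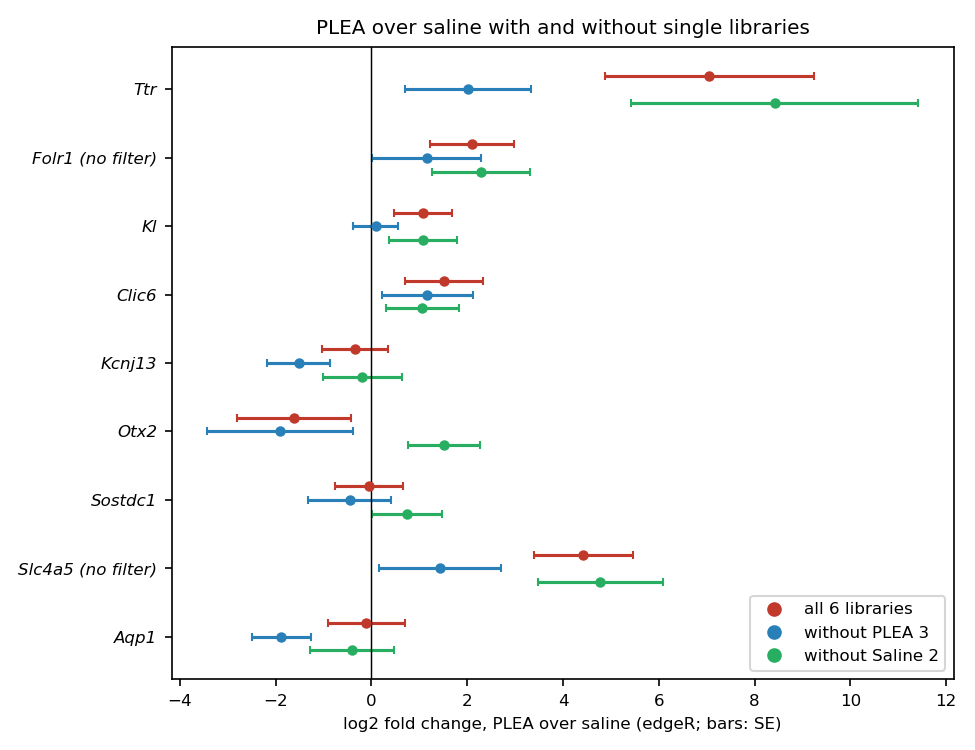
Log2 fold change of PLEA over Saline (x axis, edgeR, bars are SE) for the 9 genes with all 6 libraries (red), without PLEA replicate 3 (blue) and without Saline replicate 2 (green); Folr1 and Slc4a5 were fitted without the filter on low counts. Ttr moves from 7.06 to 2.01 when PLEA replicate 3 is left out, and Otx2 changes sign when Saline replicate 2 is left out.

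Of the 9 genes, 7 passed the filter, and edgeR's quasi-likelihood test called 0 of them higher and 0 lower in PLEA, as it did for 0 of all 17584 genes tested (0% in each direction). At an unadjusted p under 0.05, 1 of the 7 (Ttr) was higher and 0 were lower, against 401 genes higher (2.28%) and 630 lower (3.58%). DESeq2 called 4 genes higher (0.0258% of 15524) and 37 lower (0.238%), none of them among the 9. Of the 9, only Kl, Clic6 and Otx2 had an adjusted p there and could be called. DESeq2 gave no p for Ttr, as it does for a gene with an outlying count, and no adjusted p for Kcnj13, Sostdc1 and Aqp1. Folr1 and Slc4a5, under the filter, were not fitted. The groups did not overlap for 0 of the 7, against 919 genes higher (5.23%) and 959 lower (5.45%). The median log2 fold change of the 7 was -0.06, beside -0.01 over all genes tested. Their median range between the highest and lowest library was 2.86 on the log2 CPM scale, beside 0.67 over all genes tested. These ranges were not matched for expression level, and Kcnj13, Aqp1 and Sostdc1 had only 62, 107 and 108 counts over the 6 libraries.

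PLEA replicate 3 was the highest library for 7 of the 9 genes. These include 5 of the 7 that passed the filter, against 2431 of 17584 genes tested (13.8%). Its ratio to the next library was only 1.15 for Clic6 (exact 95% interval 1.01 to 1.31). It was 1.71 for Aqp1 (1.01 to 2.94), and for Kcnj13 (1.38) the interval of 0.664 to 2.96 spans 1. By a criterion chosen after the values were seen, the highest library at least 2-fold above the next, PLEA replicate 3 stood out for Ttr and Kl among the tested 7 and for 16 genes in all (0.091%). The untested Slc4a5 and Folr1 also met it. Saline replicate 2 was the highest library for Otx2 and Sostdc1, and for 3825 genes (21.8%).

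A second list of choroid plexus epithelial genes, chosen with earlier results of these data known, had 31 measured genes, of which 20 passed the filter. In edgeR 0 of the 20 were called in either direction, with a median log2 fold change of 0.02. At an unadjusted p under 0.05, 1 of the 20 was lower in PLEA, against 3.58% of all genes tested. It was the growth factor gene Igf2 (log2 fold change -1.28, SE 0.34, edgeR adjusted p = 0.818). PLEA replicate 3 was at least 2-fold above every other library for 3 of the 20 (Tmem72, F5 and Ecrg4), against 0.091% of all genes tested. Of the 11 genes under the filter, 5 also met that criterion, with 11 to 80 counts in PLEA replicate 3, against 7.76% of 16603 genes under the filter that had any count. Tmem72, a transmembrane protein gene, was at 0.231, 0.848 and 4.57 CPM in PLEA, against 0.351, 0.808 and 0.369 CPM in Saline (log2 fold change 1.87, SE 0.95, edgeR adjusted p = 0.818). Ecrg4, a secreted peptide precursor, was at 2.84 CPM in PLEA replicate 3 and at 1.27 CPM or less in the other libraries.

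The following 3 genes were picked after their values were seen. Mfrp, a membrane frizzled-related protein, had 80 counts in PLEA replicate 3 and at most 7 in any other library, a ratio of 11.3 (exact 95% interval 5.23 to 28.9). The coagulation factor V gene F5 was at 6.75 CPM in PLEA replicate 3 and 0.565 to 1.54 CPM in the others, a ratio of 4.39 to the next (2.84 to 7.06). The tight junction gene Cldn2, a claudin of this epithelium, had 31 counts in PLEA replicate 3 and at most 10 in another library, a ratio of 2.81 (1.34 to 6.43). For 9 of the 31 genes the interval of PLEA replicate 3 over the highest other library lay above 1. It lay below 1 for 8 and spanned 1 for 14. These intervals cover counting error only and were not computed over all genes. The counts thus have no share to be set against and only describe this list. Genes with intervals below 1 were Igfbp2, Igf2, Msx1, Slc29a4, Col8a1, Vat1l, Ace and Cab39l, with ratios from 0.253 (Igfbp2) to 0.856 (Cab39l).

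**Figure D3:**
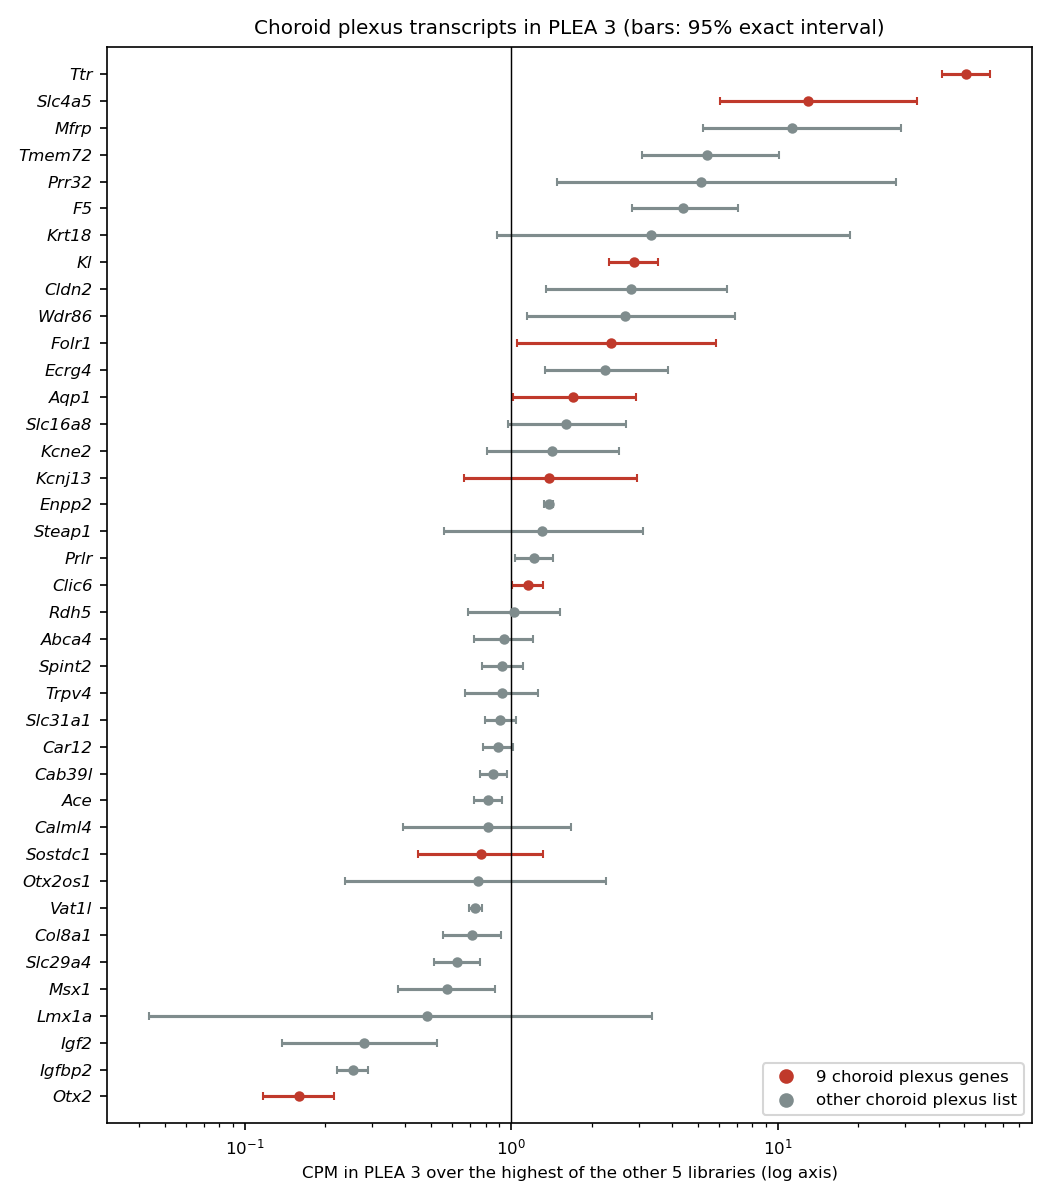
CPM in PLEA replicate 3 over the highest of the other 5 libraries (x axis, log scale) for the 9 choroid plexus genes (red) and the second choroid plexus list (grey), with exact 95% intervals. Ttr lies at 50.5, Slc4a5 at 13.0 and Mfrp at 11.3, and Otx2 lies lowest, since Saline replicate 2 was higher. Genes at 0 in PLEA replicate 3 are not drawn.

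The prolactin receptor gene Prlr, abundant in choroid plexus, was at 2.88, 12.8 and 18.7 CPM in PLEA, against 0.293, 15.5 and 4.49 CPM in Saline (log2 fold change 0.76, SE 1.0, edgeR adjusted p = 0.904). High values thus occurred in both groups, in PLEA replicates 2 and 3 and Saline replicate 2. The calcium-permeable channel gene Trpv4 was at 1.62, 4.92 and 4.52 CPM in PLEA, against 2.58, 1.27 and 1.54 CPM in Saline (log2 fold change 1.04, SE 0.47, edgeR adjusted p = 0.818). The binding protein gene Igfbp2 had its highest level, 60.1 CPM, in Saline replicate 1, where the 9 genes summed lowest.

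The genes whose profile over the 6 libraries lay closest to that of Ttr, by the root mean square difference of centred log2 CPM among 5411 genes with a range of at least 1, were Tmem72, Plin4, Gal, Fbxw23, Prlr, Irs4, Drc7 and Ecrg4. Their distances ran from 2.37 to 2.69, wide because the range of Ttr was 10.7 on this log2 scale. Plin4, a lipid droplet protein, was highest in PLEA replicate 2, at 88.8 CPM, and at 44.8 CPM in PLEA replicate 3. The galanin gene Gal, a neuropeptide, was at 0.173, 1.36 and 2.29 CPM in PLEA, against 0, 0.577 and 0.737 CPM in Saline.

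The rest of the fluid secretion machinery is shared with other brain cells. Of 16 tested genes, 0 were called, and 2 were lower in PLEA at an unadjusted p under 0.05, against 3.58% of all genes tested. Negative values were found for 14 of the 16, as for 51% of all genes tested, with a median log2 fold change of -0.17. Slc12a2, the sodium-potassium-chloride cotransporter NKCC1 of the apical membrane, was at 103, 92.3 and 105 CPM in PLEA, against 113, 161 and 104 CPM in Saline. The carbonic anhydrase gene Car2 had a log2 fold change of -0.81 (SE 0.30, edgeR adjusted p = 0.818), and the astrocytic water channel gene Aqp4 -1.18 (SE 0.34, edgeR adjusted p = 0.818). Kcne2, a potassium channel subunit of this epithelium chosen after its values were seen, did not pass the filter and was at 1.84 CPM in PLEA replicate 3 and 1.30 CPM in PLEA replicate 2, with 0.492 CPM or less in the others.

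Transport and signalling partners of Folr1, Kl, Ttr and Sostdc1 were described from 4 further lists. The folate list had 0 of 7 genes called and a median log2 fold change of -0.05, including the proton-coupled folate transporter gene Slc46a1 at -0.18 (SE 0.18, edgeR adjusted p = 0.875). The klotho list had 0 of 7 called and a median of -0.09, including the receptor gene Fgfr1 at -0.11 (SE 0.15, edgeR adjusted p = 0.905). The thyroid hormone and retinol list had 0 of 10 called and a median of 0.02, including Rbp4, whose protein rides on transthyretin, at 0.35 (SE 0.26, edgeR adjusted p = 0.848). The BMP and Wnt list had 0 of 11 called and a median of -0.34, with 4 lower at an unadjusted p under 0.05 (3.58% of all genes tested), among them the ligand genes Bmp4 at -1.23 (SE 0.34) and Bmp6 at -0.71 (SE 0.21), with edgeR adjusted p = 0.818 for each.

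Markers of neighbouring tissue varied between the same libraries. Ciliated ependyma lines the ventricles beside the choroid plexus, and its 16 genes summed to 41.4, 44.1 and 56.4 CPM in PLEA, against 21.5, 46.7 and 28.1 CPM in Saline. PLEA replicate 3 was highest and Saline replicate 1 lowest, and 0 to 2 of the 16 genes were at 0 in any library. All 14 tested genes of this list had positive log2 fold changes, as did 49% of all genes tested, and their median was 0.69, but 0 were called in edgeR. At an unadjusted p under 0.05, 1 of the 14 was higher in PLEA, against 2.28% of all genes tested. It was the cilium gene Tekt4 (1.30, SE 0.47, edgeR adjusted p = 0.818). The cilium gene Ccdc153 was at 2.31, 2.15 and 3.68 CPM in PLEA, against 0, 2.42 and 0.860 CPM in Saline. The part of ependyma in the differences of the 9 genes was not tested.

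The striatal markers, which stand for tissue below the cortex and next to the lateral ventricle, summed to 1044, 2243 and 1942 CPM in PLEA, against 966, 239 and 2280 CPM in Saline. Clic6 was high in the same 3 libraries as these genes, PLEA replicates 2 and 3 and Saline replicate 3, and lowest in Saline replicate 2. The projection neuron gene Ppp1r1b (DARPP-32) had 201, 532 and 436 CPM in PLEA, against 189, 25.8 and 411 CPM in Saline. In a comparison added after the values were seen, the gene closest to Clic6 was Nkx2-1, a transcription factor gene of ventral forebrain, at 1.79, 4.81 and 5.24 CPM in PLEA, against 0.761, 0.231 and 4.12 CPM in Saline (distance 0.33). The striatal list had 0 of 9 genes called in edgeR, with a median log2 fold change of 0.51, and its part in the Clic6 values was not tested.

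Of 8 thalamic and habenular markers, 5 had their highest level in Saline replicate 2, the high library of Otx2, against 21.8% of all genes tested. Saline replicate 2 was also highest for 4 of 7 tested hippocampal genes and 8 of 16 tested fluid and ion transport genes. The thalamic and habenular markers summed to 204, 255 and 225 CPM in PLEA, against 208, 669 and 205 CPM in Saline, so Saline replicate 2 was the highest. Slc17a6, the glutamate transporter gene of thalamus and midbrain, was at 22.3, 37.7 and 22.8 CPM in PLEA, against 23.2, 283 and 29.3 CPM in Saline. The transcription factor gene Lhx9 was at 0.404, 2.20 and 1.56 CPM in PLEA, against 0.644, 30.9 and 0.492 CPM in Saline, and Tcf7l2 reached 79.3 CPM in Saline replicate 2 and 16.3 CPM or less elsewhere. Other markers of the list went the other way, and the kinase gene Prkcd was at 37.2, 49.6 and 46.1 CPM in PLEA, against 25.6, 9.34 and 27.7 CPM in Saline, lowest in Saline replicate 2 (log2 fold change 1.09, SE 0.35, edgeR adjusted p = 0.818). Lhx2, between 24.9 and 36.6 CPM, and Tac2, at 3.11 CPM in Saline replicate 2, were not highest there either. Lhx2 and Tac2 fall outside the rule for naming genes that is given with the processing. In the comparison added after the values were seen, the gene closest to Otx2 was Glra1, a glycine receptor subunit, at 21.2 CPM in Saline replicate 2 and 1.0 CPM or less in the other libraries (distance 0.64). This list had 0 of 8 genes called, with a median log2 fold change of -0.52, and its part in the Otx2 value was not tested.

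**Figure D4:**
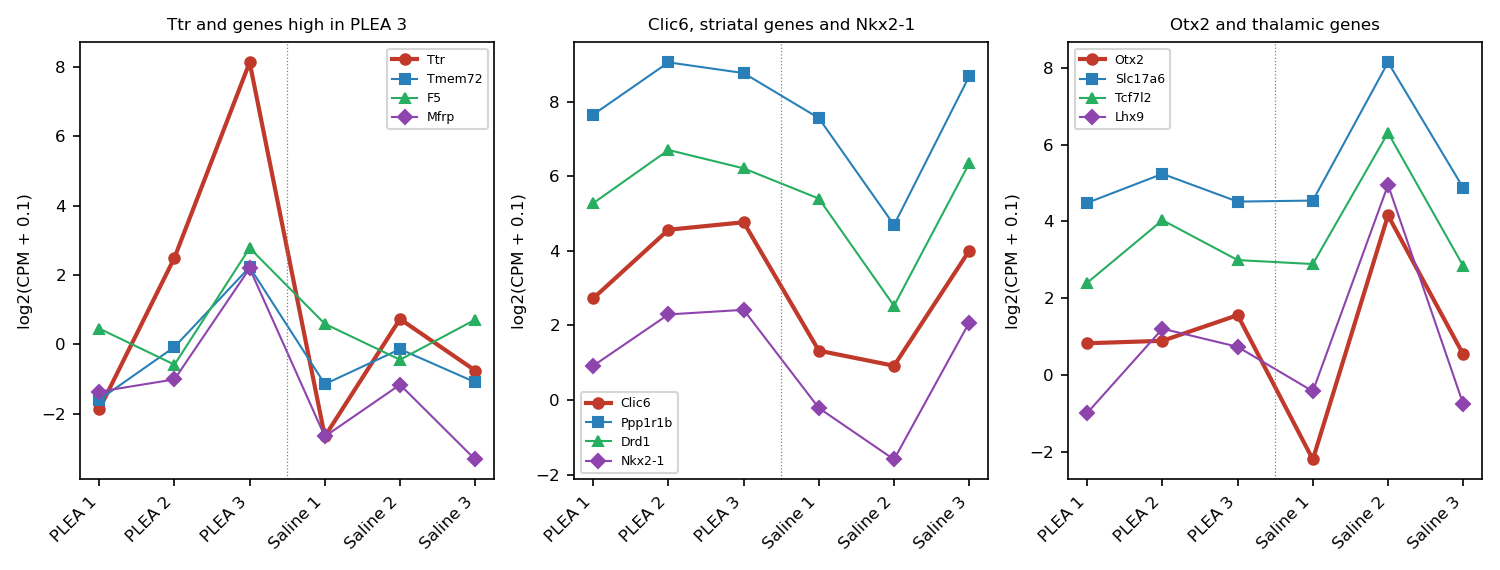
Log2(CPM + 0.1) (y axis) in the 6 libraries (x axis) for Ttr with Tmem72, F5 and Mfrp, for Clic6 with the striatal genes Ppp1r1b and Drd1 and with Nkx2-1, and for Otx2 with the thalamic genes Slc17a6, Tcf7l2 and Lhx9. The first set peaks in PLEA replicate 3, the second is low in Saline replicate 2, and the third peaks in Saline replicate 2. The genes drawn are a selection from their lists. In the second choroid plexus list, 8 of 31 genes had an interval of PLEA replicate 3 over the highest other library below 1. Of the thalamic and habenular list, Prkcd was lowest in Saline replicate 2, and Lhx2 and Tac2 were not highest there.

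Outside the 2 choroid plexus lists, 0 tested genes of the other 13 lists had PLEA replicate 3 at least 2-fold above every other library. Over all genes tested the share was 0.091% (16 of 17584), so a count of 0 does not set these lists apart. Leptomeningeal genes, markers of the membranes on the brain surface, had 0 of 12 called and a median log2 fold change of -1.12, with 11 lower at an unadjusted p under 0.05, against 3.58% of all genes tested. Their sum was 360, 498 and 469 CPM in PLEA, against 602, 800 and 686 CPM in Saline. Hippocampal genes had 0 of 7 called and a median of -0.02, and the dentate gyrus gene C1ql2 was at 2.79 CPM in PLEA replicate 3 and 16.6 CPM in Saline replicate 2. Cortical excitatory genes had 0 of 8 called and a median of 0.06, endothelial genes 0 of 6 and -0.21, and blood genes 0 of 3 and 0.52, with the haemoglobin gene Hbb-bs at 1.04 CPM or less in every library.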

How the data were processed

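The deposited table holds unnormalized whole-number counts for each gene and library, with gene lengths in bases, and libraries were grouped by their titles. The sources used here do not name the aligner, the counting tool or the strand setting. Per the submitters' processing notes the builds are GRCm38 and mm10, but 0 of the 9 genes had the coordinates of GENCODE M21, an annotation of GRCm38, so coordinates are printed as deposited, with no build attached. Exon overlaps were read within GENCODE M21.

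The test was edgeR's quasi-likelihood F test (edgeR 4.0.16, R 4.3.3) with TMM factors, the filterByExpr filter and no covariate, over 17584 genes, with Benjamini-Hochberg adjustment and a threshold of 0.05. The SE is the log2 fold change over the square root of F. RPKM divides CPM by gene length. Log2 CPM used a prior count of 2. Alternatives used DESeq2 1.42.0, limma 3.58.1 (voom), other factors and filters, a replicate block and leaving out each library. The 9 genes and 14 other lists were chosen with earlier results of these data known, and no set test was run. Named from each list were up to 4 genes with the smallest p and up to 3 with the widest range, and exceptions are marked. In simulated data for this comparison (17301 genes), a 2-fold change was recovered for 42% of altered genes and a 4-fold change for 83%, with 9 false calls among 134. The altered genes were picked at random, and counts were drawn from each gene's mean and estimated dispersion, with no single library set apart. These shares thus do not give the recovery for the 9 genes, which have few counts or 1 dominant library in several cases. The labels do not say that replicates are separate animals, so p-values reflect only the spread of these libraries, part of which may be technical.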

Additional observations from a re-analysis of the deposited data

How the results depend on the processing

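The count of genes called was 0 higher and 0 lower in PLEA with upper-quartile or RLE factors, with limma voom, with a CPM of at least 1 in 3 libraries and with the replicate block. It was 4 higher and 37 lower with DESeq2, and 7 and 31 in edgeR with no filter, where 1 of the 9 genes (Ttr) was called higher; the cause was not tested. When each library in turn was left out, 0 to 0 genes were higher and 0 to 1 lower (1 without Saline replicate 1), and 0 to 0 of the choroid plexus genes that passed the filter were called in each direction. The replicate numbers were not taken as pairs, since the labels state no pairing. Same-numbered libraries deviated together with correlations of 0.37, 0.17 and -0.02, and differently numbered ones with -0.36 to 0.23. These values do not settle whether the numbers are pairs. Under the replicate block the counts stayed at 0 and Sostdc1 turned to 0.15, while Otx2 was at -0.15, Aqp1 at -0.52 and Kcnj13 at -0.58. There Ttr was at 5.67 (SE 1.43, edgeR adjusted p = 0.431), Clic6 at 1.86 (SE 0.50, edgeR adjusted p = 0.477) and Kl at 0.80 (SE 0.31, edgeR adjusted p = 0.596). With limma voom Otx2 turned to 0.41 and Sostdc1 to 0.36, and Ttr was at 4.06, Aqp1 at -0.73 and Kcnj13 at -0.81. Over the fits without 1 library, log2 fold changes ran from -1.88 to 0.34 for Aqp1, -1.52 to 0.13 for Kcnj13, -2.19 to 1.51 for Otx2, -0.55 to 0.74 for Sostdc1, 0.09 to 1.49 for Kl, 1.06 to 3.17 for Clic6 and 2.01 to 8.42 for Ttr. Aqp1 turned to 0.34 and 0.30 without PLEA replicate 1 or 2 and to 0.15 without Saline replicate 1, and Kcnj13 to 0.13 and Sostdc1 to 0.23 without PLEA replicate 2. The fits without the filter that leave out 1 library were chosen after seeing the data. Ttr then ran from 1.99 to 8.40, Slc4a5 from 1.43 to 4.99 and Folr1 from 1.15 to 2.71. Without Ttr the summed level was 33.8 CPM in PLEA replicate 2 and 61.1 CPM in PLEA replicate 3, and by library total alone it was 352 CPM in PLEA replicate 3. At this depth 3 counts are 0.167 to 0.184 CPM, and Folr1, Kcnj13, Aqp1 and Sostdc1 had only 40, 62, 107 and 108 counts over the 6 libraries.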

Other observations

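Among the 16 genes that stood at least 2-fold above every other library in PLEA replicate 3 were genes of no choroid plexus list, picked after their values were seen. The pentraxin gene Ptx3 was at 0.808, 0.0565 and 5.02 CPM in PLEA, against 0.820, 0.981 and 0.246 CPM in Saline. Hmox1, which encodes a haem-degrading enzyme, was at 52.6, 15.0 and 107 CPM in PLEA, against 37.7, 6.23 and 6.33 CPM in Saline. Sumo2, which encodes a ubiquitin-like modifier, was at 23.2, 9.89 and 60.8 CPM in PLEA, against 7.61, 6.23 and 6.88 CPM in Saline. The fibroblast growth factor gene Fgf17 was at 1.56 CPM in PLEA replicate 3 and 0.737 CPM or less in the other libraries.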
